A study of Homo sapiens with 18 samples.

Results

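The aminoacyl-tRNA synthetases were taken from the expression table by symbol: every row made of a single amino acid letter followed by ARS, with or without a final 2, together with EPRS, FARSA, FARSB and TARSL2. This gave 38 genes of the 13141 in the table, of which 37 are described: 21 encode cytosolic enzymes and 16, with symbols ending in 2, encode mitochondrial enzymes. GARS and KARS, counted as cytosolic, each serve both compartments. By catalytic fold 19 were class I and 18 were class II, with EPRS, which carries an activity of each class, counted in class I.

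The samples were 786-O cells, a human clear cell renal cell carcinoma (ccRCC) line that lacks functional VHL, a part of the ubiquitin ligase that marks hypoxia-inducible factors for destruction. Illumina HumanHT-12 V4 arrays were run in 6 groups of 3: VHL-/- cells and VHL+/+ cells, in which VHL had been put back, each carrying a scramble shRNA (SCR), PBRM1 shRNA or KDM5C shRNA. PBRM1 is a subunit of the PBAF chromatin remodelling complex and KDM5C is a histone demethylase, both tumour suppressors in ccRCC. Every group shared the line and, in the authors' methods, a medium with serum, glutamine, penicillin and streptomycin, and selection after viral infection with the shRNA. The labels name no drug treatment. They also do not say whether the 3 arrays of a group came from separate cultures, so p-values measure the spread between arrays, which may be technical. Each array measured RNA from many cells together, so that more cells with a transcript and more transcript per cell cannot be told apart.

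A synthetase joins 1 amino acid to its tRNAs, and the charged tRNAs then feed the ribosome. Cytosolic and mitochondrial translation use largely separate sets of these enzymes, all encoded in the nucleus. Several cytosolic synthetases sit together in a multi-synthetase complex. When charged tRNA runs short, the kinase GCN2 (EIF2AK4) phosphorylates the translation factor eIF2, the transcription factor ATF4 is made, and ATF4 raises the genes of many cytosolic synthetases along with amino acid transporters and biosynthetic enzymes. WARS differs from the others in that interferon induces it strongly.

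The deposited values were log2 signals from 6.27 to 14.66, with array medians of 7.65, and precision is set by having 3 arrays in a group. PBRM1 mRNA was not detectably lower in cells labelled PBRM1 shRNA: the log2 difference from SCR was -0.06 without VHL (95% interval -0.32 to 0.19) and -0.15 with VHL (-0.40 to 0.11). PBRM1 signal was low, with group means from 7.21 to 7.35, below the array medians, which limits what a difference can show. KDM5C had no row, so neither knockdown could be seen at the mRNA level on these arrays, and groups are named by their labels throughout. The authors show protein blots of 786-O cells with either gene suppressed by shRNA, which the arrays do not cover. VHL mRNA did not pass the test either (log2 difference with SCR 0.08, adjusted p = 0.766), while 5, 6 and 6 of 8 hypoxia-inducible target genes were lower in VHL+/+ cells with SCR, PBRM1 shRNA and KDM5C shRNA. Of 10 renal epithelial line markers 9 were in the table, with group means of 9.79 to 9.97. They ran from the 41.1st (KRT18) and 42.7th (LHX1) to the 99.7th percentile of signal (VIM). The 7 markers of leukocytes, endothelium, erythroid cells and fibroblasts in the table all lay at or below the 21.4th percentile. Replicates 1 and 2 of each group were on chip 1 and replicate 3 on chip 2. The chips differed in 23.8% of all genes and in 16 of the 37 synthetases (15 lower and 1 higher on chip 2), and each test carried a term for the chip.

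The synthetases called in these comparisons were AARS, AARS2, DARS and TARS2. In limma, with p-values adjusted by Benjamini-Hochberg over all genes and a gene called at adjusted p under 0.05, 4 of the 37 (10.8%) were called in at least 1 of the 7 comparisons of an shRNA with SCR or of VHL+/+ with VHL-/- cells, a share near that of all genes (1649 of 13141, 12.5%). The 4 were class II enzymes, and whether the classes differed was not tested. No synthetase was called lower with an shRNA, and none was called higher with VHL. Of all genes 0.898% to 2.65% were called lower with an shRNA and 1.21% to 1.30% higher with VHL. At such shares 37 genes would give few calls. The members' median standard error was 0.11 (range 0.06 to 0.19), and the intervals kept 35, 32, 33 and 33 of the 37 within a 1.5-fold change in the 4 shRNA comparisons and 36, 36 and 36 in the VHL comparisons.

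Alanyl-tRNA synthetase, AARS, was the synthetase that rose with both shRNAs in both VHL backgrounds. Of the 37 it had the largest fitted change in each of the 4 comparisons. Over all genes 117 of 13141 (0.890%) were called higher in all 4, so AARS shared this pattern with many other genes. Ordered from the largest increase, it was 65th, 93rd, 38th and 56th of all genes.

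In VHL-/- cells AARS gave a log2 signal of 11.13, 11.16 and 11.06 on the SCR arrays (mean 11.12 ± 0.05, SD, n = 3), 11.81, 11.76 and 11.93 with PBRM1 shRNA (11.83 ± 0.09) and 11.91, 11.82 and 11.51 with KDM5C shRNA (11.75 ± 0.21). In VHL+/+ cells the values were 11.09, 11.10 and 11.28 with SCR (11.16 ± 0.11), 11.88, 12.07 and 11.83 with PBRM1 shRNA (11.93 ± 0.13) and 11.78, 11.89 and 12.00 with KDM5C shRNA (11.89 ± 0.11). Every shRNA array lay above every SCR array of either background, and the lowest shRNA array was replicate 3 with KDM5C shRNA in VHL-/- cells. The log2 fold change was 0.72 with PBRM1 shRNA (SE 0.10, 1.64-fold, adjusted p = 0.000462) and 0.63 with KDM5C shRNA (1.55-fold, adjusted p = 0.00152) in VHL-/- cells, and 0.77 (1.71-fold, adjusted p = 0.000400) and 0.73 (1.66-fold, adjusted p = 0.000644) in VHL+/+ cells. Both shRNAs of a background were set against the same 3 SCR arrays, so the comparisons are not independent. The calls held with each array left out in turn, and the log2 fold changes within chip 1 were 0.64, 0.72, 0.88 and 0.74 and within chip 2 were 0.87, 0.45, 0.55 and 0.71, in the same order. The shRNAs were not told apart: AARS differed between PBRM1 and KDM5C shRNA by 0.09 (95% interval -0.13 to 0.30) in VHL-/- cells and by 0.04 (-0.17 to 0.26) in VHL+/+ cells. The change of the shRNA effect from VHL-/- to VHL+/+ cells was 0.06 (-0.25 to 0.36) for PBRM1 and 0.10 (-0.20 to 0.41) for KDM5C.

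**Figure D1:**
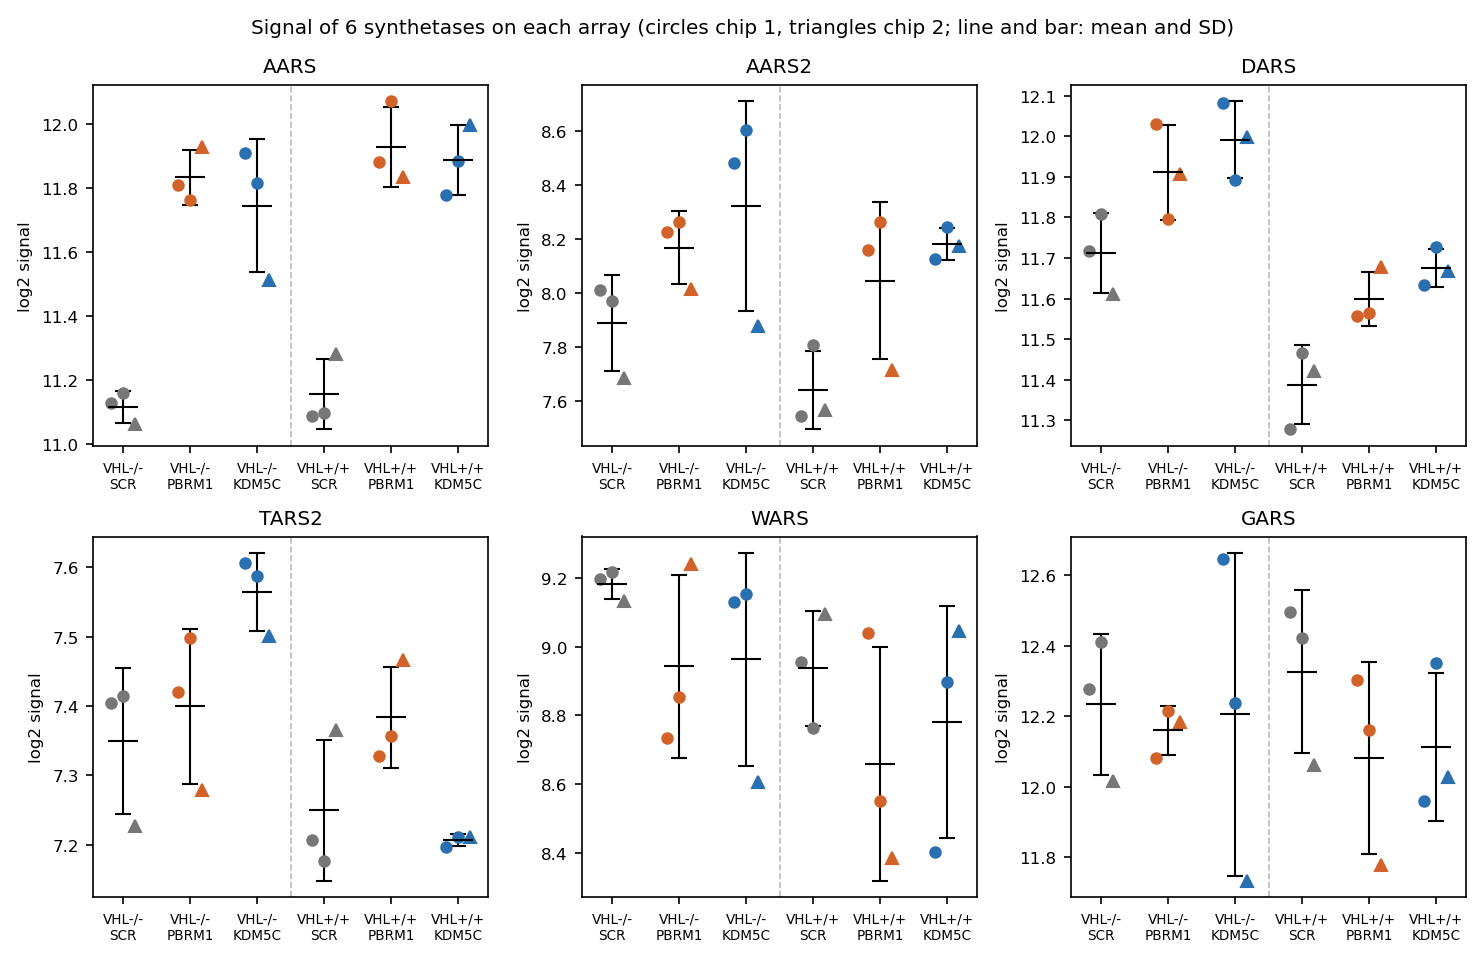
Deposited log2 signal (vertical axis) of 6 synthetases, in the 6 groups of 3 arrays; circles are arrays of chip 1, triangles those of chip 2, and line and bar the mean and SD of a group (n = 3). AARS separates all shRNA arrays from all SCR arrays, while the shRNA arrays of WARS overlap its SCR arrays.

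AARS2, the mitochondrial alanyl-tRNA synthetase, rose with KDM5C shRNA in both backgrounds. In VHL-/- cells it read 8.01, 7.97 and 7.68 with SCR (7.89 ± 0.18), 8.23, 8.26 and 8.01 with PBRM1 shRNA (8.17 ± 0.13) and 8.48, 8.60 and 7.88 with KDM5C shRNA (8.32 ± 0.39). In VHL+/+ cells it read 7.55, 7.81 and 7.57 with SCR (7.64 ± 0.14), 8.16, 8.26 and 7.72 with PBRM1 shRNA (8.04 ± 0.29) and 8.12, 8.24 and 8.17 with KDM5C shRNA (8.18 ± 0.06). Replicate 3 was the lowest array of 4 of the 6 groups, and AARS2 was 0.30 lower on chip 2 over all groups (log2, adjusted p = 0.00493), and the deposited values overlapped SCR with KDM5C shRNA in VHL-/- cells and with PBRM1 shRNA in VHL+/+ cells. AARS2 was called with KDM5C shRNA, at a log2 fold change of 0.43 (SE 0.11, adjusted p = 0.0383) in VHL-/- cells and 0.54 (1.46-fold, adjusted p = 0.0136) in VHL+/+ cells. With PBRM1 shRNA it gave 0.28 (adjusted p = 0.194) and 0.41 (adjusted p = 0.0776). The call in VHL-/- cells was lost when VHL-/- SCR replicate 1, 2 or 3, VHL-/- KDM5C shRNA replicate 1 or 2, or VHL+/+ KDM5C shRNA replicate 2 was left out (adjusted p 0.0508 to 0.154), and the call in VHL+/+ cells was lost without VHL+/+ SCR replicate 1 or VHL+/+ KDM5C shRNA replicate 3 (0.0835 to 0.0861). Without the chip term both were lost, at adjusted p = 0.270 and 0.144.

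In VHL-/- cells the calls came to 1 of 37 higher with PBRM1 shRNA, where 2.79% of all genes were called higher and 2.65% lower, and to 2 of 37 higher with KDM5C shRNA, against 2.40% and 2.37%. In VHL+/+ cells 1 of 37 was called higher with PBRM1 shRNA, against 1.59% of all genes higher and 0.898% lower, and 2 of 37 with KDM5C shRNA, against 2.39% and 1.80%. AARS was among the called genes each time. Over all 37 the median log2 fold change was -0.00, 0.02, 0.03 and -0.00 in the 4 comparisons, each beside a median of 0.00 to 2 decimals over all genes, and 18, 21, 20 and 18 members lay above 0. Regardless of sign, the median size of the change was 0.122, 0.0972, 0.134 and 0.117, beside 0.0893, 0.0898, 0.0855 and 0.0952 over all genes. At unadjusted p under 0.05 in limma there were 9, 10, 7 and 10 of the 37, beside 2381, 2301, 2007 and 2414 of all genes. Whether the synthetases moved more than other genes was not tested. The 21 cytosolic genes gave medians of -0.00, -0.01, 0.01 and -0.03, and the 16 mitochondrial genes -0.01, 0.08, 0.06 and 0.01. The synthetases that were not called ran from -0.25 (IARS2) to 0.30 (VARS) with PBRM1 shRNA and from -0.34 (IARS2) to 0.30 (VARS) with KDM5C shRNA in VHL-/- cells. In VHL+/+ cells they ran from -0.42 (SARS) to 0.41 (AARS2) and from -0.33 (TARS) to 0.41 (VARS). The members nearest to the threshold in these comparisons without passing were DARS, the cytosolic aspartyl enzyme, with KDM5C shRNA (0.28 in VHL-/- cells, adjusted p = 0.0629, and 0.29 in VHL+/+ cells, adjusted p = 0.0584), LARS2, the mitochondrial leucyl enzyme, with KDM5C shRNA (0.22 in either background, adjusted p = 0.0638 and 0.0634), and FARSA, a subunit of the cytosolic phenylalanyl enzyme, in VHL+/+ cells with KDM5C shRNA (0.30, adjusted p = 0.0682).

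**Figure D2:**
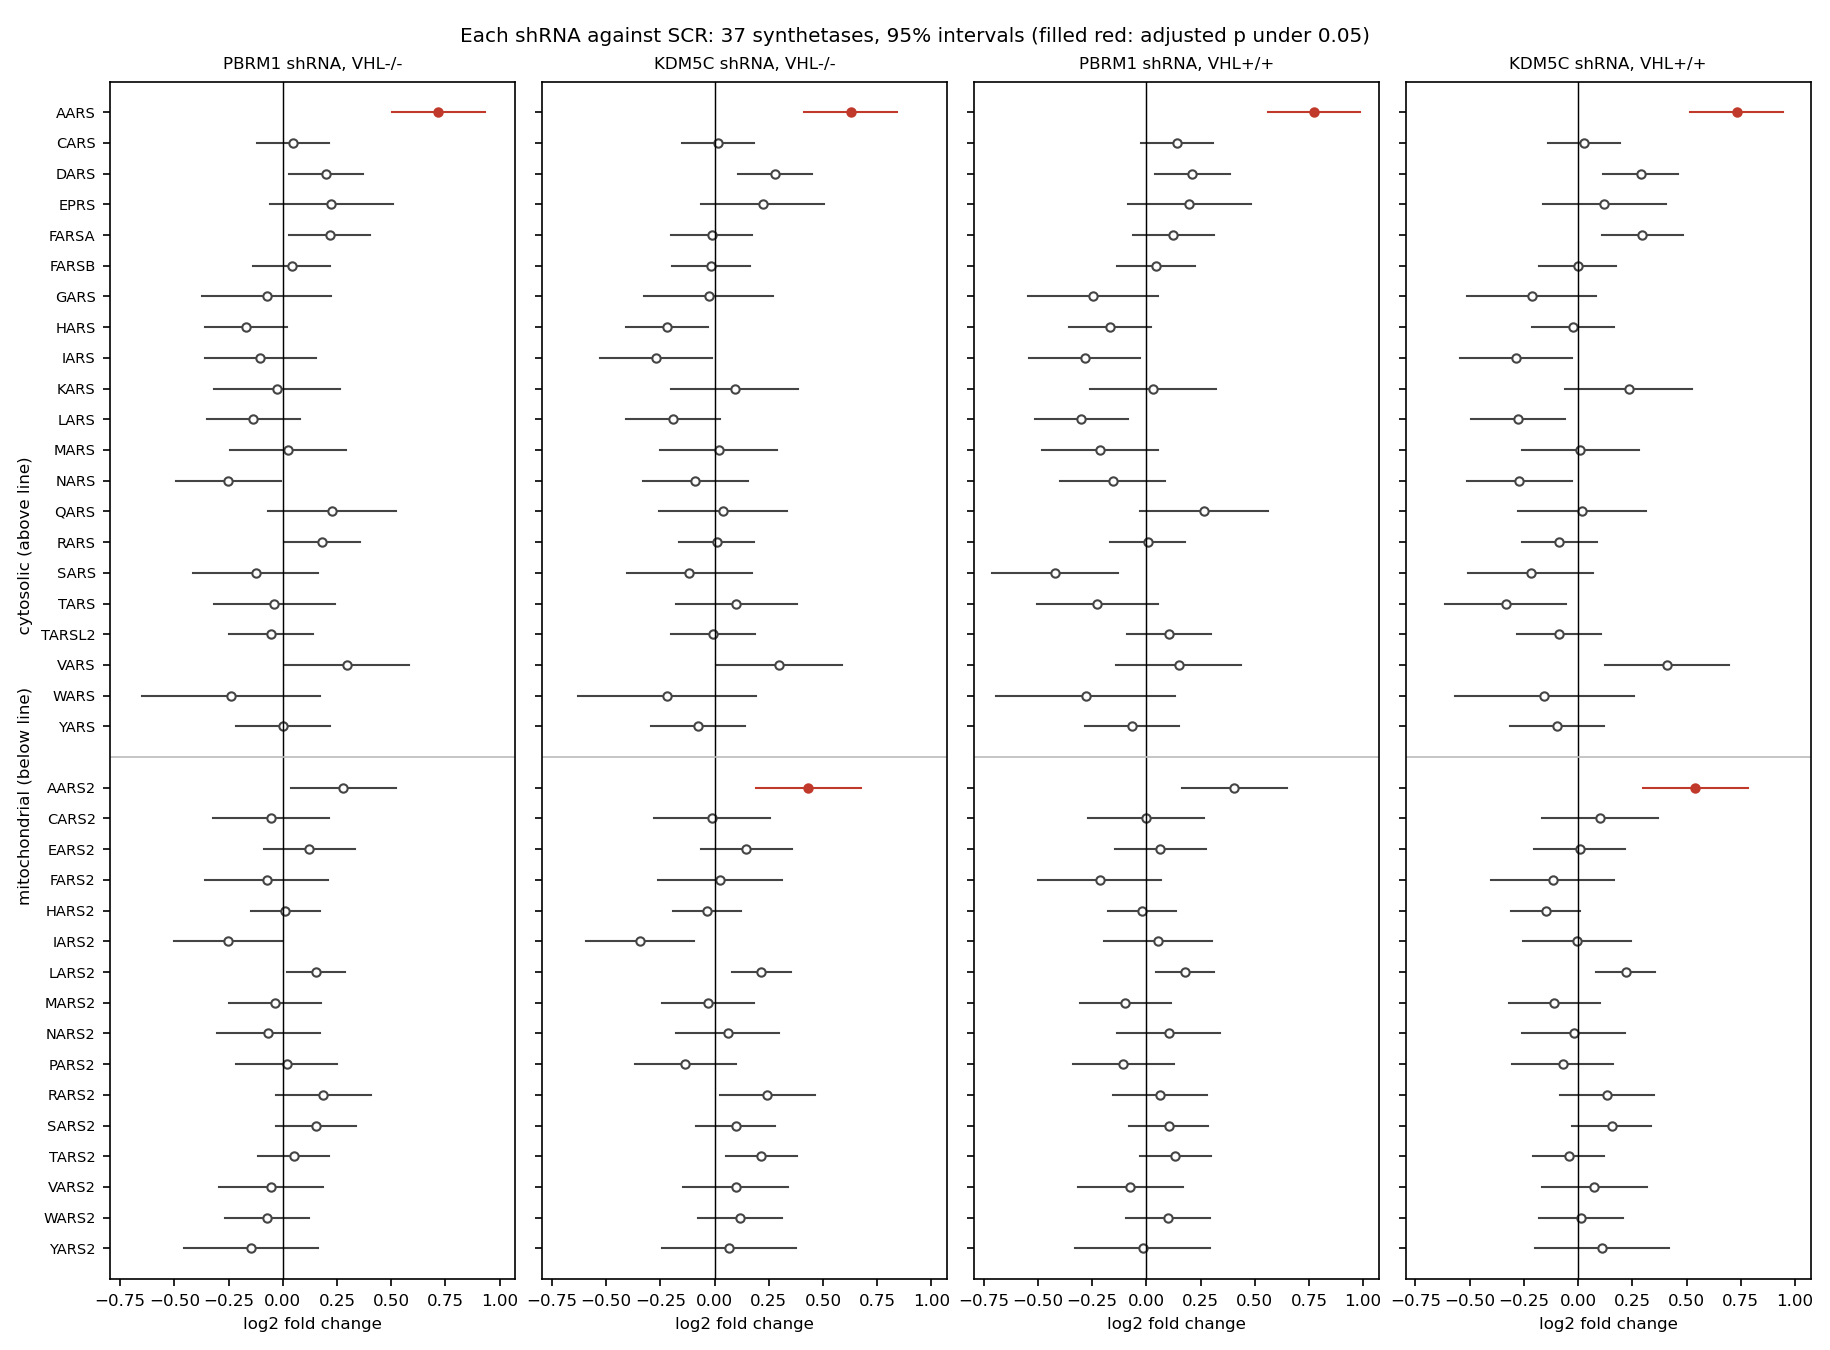
Log2 fold change against SCR (horizontal axis) with its 95% interval for each of the 37 synthetases, with PBRM1 and KDM5C shRNA in each VHL background; filled points were called by limma at adjusted p under 0.05. AARS is the member called in all 4 comparisons, where 0.890% of all genes were called higher in all 4, and most intervals span 0.

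The 12 synthetases known as targets of ATF4 held 1 called gene, AARS, and their median log2 fold changes were -0.06, -0.05, -0.22 and -0.19. Of the 11 others, 8, 7, 9 and 8 lay below 0, with values from -0.25 (NARS) to 0.22 (EPRS) with PBRM1 shRNA in VHL-/- cells and from -0.42 (SARS) to 0.20 (EPRS) in VHL+/+ cells. The core of the amino acid response element through which ATF4 acts, TGATGNAA, was searched on both strands of RefSeq promoter windows of 300 bases, 250 before the start and 50 from it. Windows of 29 synthetases were searched, 38 in all, and the core was in 7 of these (18.4%) and in 3.62% of all windows. By gene it was in 7 of 29 synthetases and in 4.46% of all genes. It was in 6 of the 9 ATF4 targets searched (CARS, GARS, IARS, MARS, NARS and TARS) and in 1 of the 20 other synthetases (YARS2). A match is a description of the letters and not a binding site. IARS, the isoleucyl enzyme, is shown because it holds the core close to its start and was not called: its log2 fold changes were -0.10, -0.27, -0.28 and -0.29. Its 250 bases before the RefSeq start, shown 5′ to 3′, chr9:92293698-92293947 on the minus strand of GRCh38.p14, has the core, on the opposite strand and in capitals, 13 bases before the start and, also in capitals, the hypoxia core ACGTG read on both strands as the overlapping letters CACGTG.
IARS: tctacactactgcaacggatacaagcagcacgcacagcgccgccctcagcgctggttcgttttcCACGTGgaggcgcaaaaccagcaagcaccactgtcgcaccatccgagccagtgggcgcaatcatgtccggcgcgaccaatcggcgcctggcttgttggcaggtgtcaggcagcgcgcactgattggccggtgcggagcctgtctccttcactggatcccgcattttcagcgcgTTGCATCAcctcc
The 7 synthetases found with the core gave 0 calls in the 4 shRNA comparisons, with log2 fold changes from -0.33 to 0.14. Over all genes 714, 628, 327 and 551 of 13141 were called, a share at which 7 genes would give few calls. Whether the core goes with a response was not tested. Among genes that are no synthetase, 28 of 30 ATF4 targets were in the table, 0 were called higher with an shRNA, and their medians were -0.08, -0.04, -0.06 and -0.02. Of all genes 2.79%, 2.40%, 1.59% and 2.39% were called higher in these comparisons. PSPH, the last enzyme of serine synthesis, was lower in VHL-/- cells with PBRM1 shRNA (-0.80, adjusted p = 0.0186) and KDM5C shRNA (-0.68, adjusted p = 0.0489). The secreted glycoprotein gene STC2 was lower in VHL+/+ cells (-0.78, adjusted p = 0.0202, and -0.86, adjusted p = 0.00950), as was the lipoprotein receptor gene VLDLR with KDM5C shRNA (-0.65, adjusted p = 0.0221). None of these 5 calls held with each array left out.

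Of 10 genes for sensing uncharged tRNA in the table, 2 subunits of eIF2 rose in all 4 shRNA comparisons. Of all genes 2.79%, 2.40%, 1.59% and 2.39% were called higher in these comparisons. EIF2S1, the subunit that GCN2 phosphorylates, was higher by 0.73, 0.76, 0.55 and 0.60 on the log2 scale (adjusted p = 0.000425, 0.000351, 0.00650 and 0.00326), and EIF2S2 by 0.57, 0.50, 0.66 and 0.73 (adjusted p = 0.000678, 0.00206, 0.000286 and 0.000159). The third subunit, EIF2S3, gave -0.19, -0.11, -0.22 and -0.11 and was not called. All 8 calls held with each array left out, and in chip 1 alone EIF2S1 in VHL+/+ cells was no longer called (adjusted p = 0.0828 and 0.0711). Without the chip term the EIF2S1 call with PBRM1 shRNA in VHL+/+ cells was also lost. The list medians were 0.07, 0.05, 0.19 and 0.21. SEPHS1, a selenophosphate synthetase paralogue of the list for selenocysteinyl-tRNA, gave the largest change of any gene of the tRNA lists in the shRNA comparisons: 1.21, 1.01, 1.04 and 0.82 (adjusted p = 8.16e-06, 6.26e-05, 8.03e-05 and 0.000585), and it was the called gene among 4 of that list in the table.

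Some genes that make, modify and deliver tRNA were called higher with an shRNA. Of all genes 2.79%, 2.40%, 1.59% and 2.39% were called higher in the 4 shRNA comparisons. Whether these lists held more or fewer calls than other genes was not tested. GTF3C2, a subunit of the polymerase III factor TFIIIC, was called higher in all 4 comparisons (0.38, 0.30, 0.47 and 0.38), and GTF3A in VHL-/- cells (0.33 with PBRM1 and 0.39 with KDM5C shRNA), among 21 polymerase III genes. Of these calls the one that held with each array left out was GTF3C2 with PBRM1 shRNA in VHL+/+ cells. Of 36 genes for tRNA maturation and export, POP7, PUS1 and TRMT1 were called with KDM5C shRNA in VHL+/+ cells (0.41, 0.46 and 0.51) and 0 in the other shRNA comparisons, and GTPBP3, which modifies mitochondrial tRNA, was called with KDM5C shRNA (0.62 without and 0.63 with VHL) among 13 mitochondrial tRNA genes. These 5 calls did not hold with each array left out. In none of the 7 comparisons was a gene called among 9 elongation factors, 4 editing factors or the 1 scaffold of the multi-synthetase complex in the table. Of all genes 12.5% were called in at least 1 of the 7, so lists this short would hold few calls.

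**Figure D3:**
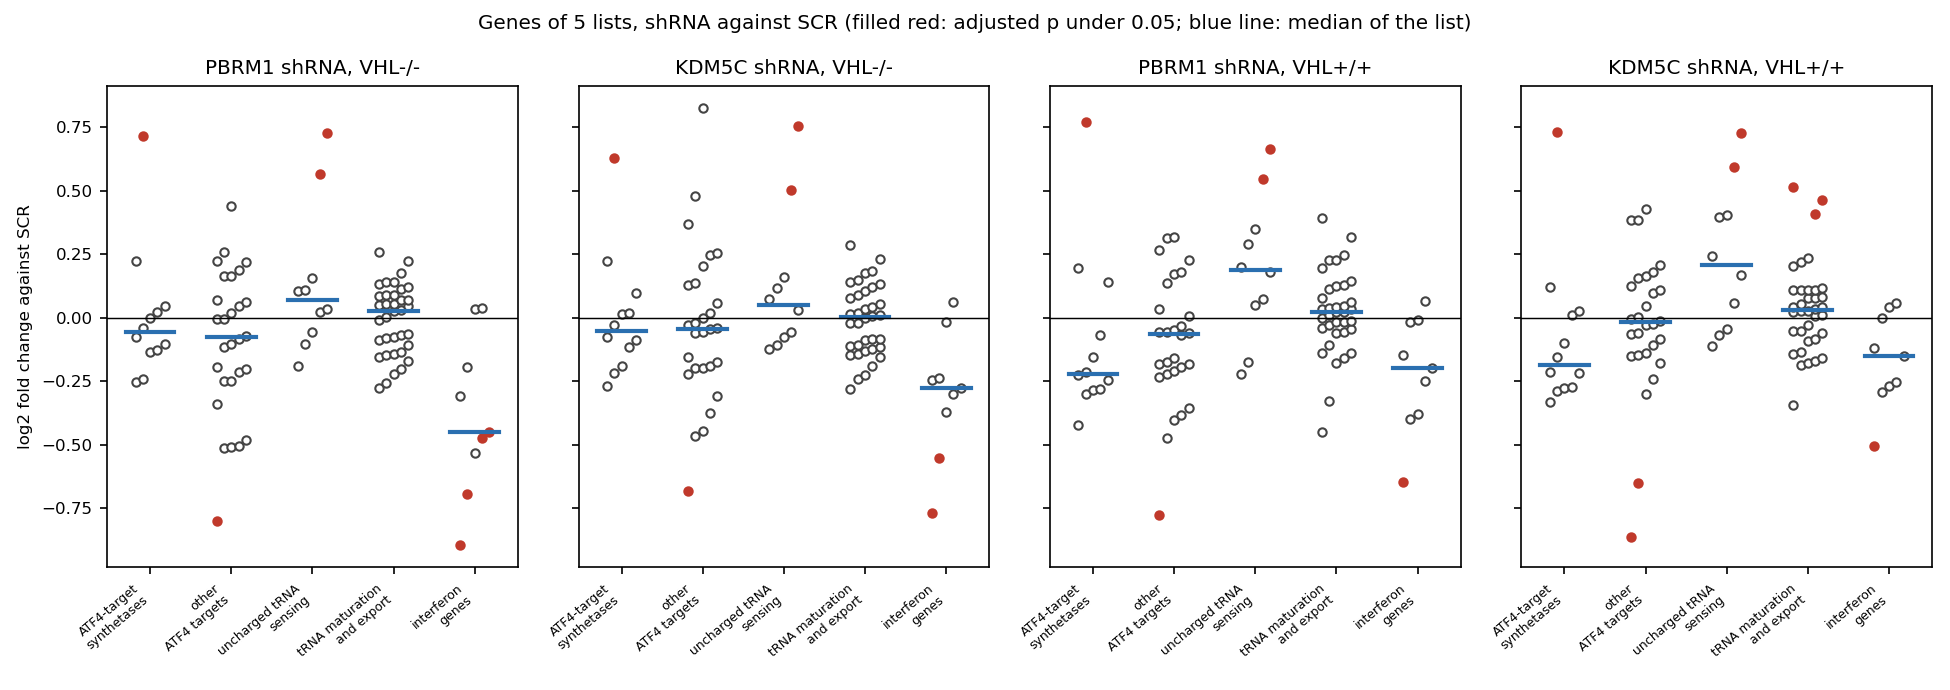
Log2 fold change against SCR (vertical axis) of every gene of 5 lists in the 4 shRNA comparisons: ATF4-target synthetases, other ATF4 targets, genes for sensing uncharged tRNA, genes for tRNA maturation and export, and interferon genes. A point is a gene, filled where limma called it at adjusted p under 0.05, and a blue line is the median of the list. In each comparison 2 of 10 genes for sensing uncharged tRNA were called higher, beside 1.59% to 2.79% of all genes. With PBRM1 shRNA in VHL-/- cells 4 of 9 interferon genes were called lower, beside 2.65% of all genes.

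WARS, the interferon-induced tryptophanyl enzyme, was not called in any comparison. It was the synthetase that varied most within groups, with a residual SD of 0.278 after group and chip were fitted. It read 9.20, 9.22 and 9.13 with SCR in VHL-/- cells (9.18 ± 0.04), 8.73, 8.85 and 9.24 with PBRM1 shRNA (8.94 ± 0.27) and 9.13, 9.15 and 8.61 with KDM5C shRNA (8.96 ± 0.31). In VHL+/+ cells it read 8.95, 8.76 and 9.10 (8.94 ± 0.17), 9.04, 8.55 and 8.38 (8.66 ± 0.34) and 8.40, 8.90 and 9.05 (8.78 ± 0.34). The shRNA arrays overlapped the SCR arrays in all 4 comparisons, while with SCR the VHL+/+ arrays all lay below the VHL-/- arrays. The log2 fold changes were -0.24, -0.22, -0.28 and -0.16 (adjusted p = 0.599, 0.644, 0.566 and 0.740), with an interval of -0.65 to 0.17 for the first. Within chip 1 they were -0.41, -0.06, -0.06 and -0.21, and within chip 2 0.11, -0.53, -0.71 and -0.05. WARS had 2 promoter windows, and the one at chr14:100376278-100376577 held no interferon motif. The upstream part of the other is shown for its interferon motifs: chr14:100375348-100375597 on the minus strand of GRCh38.p14 holds, in capitals, a GAS (TTCNNNGAA) 142 bases and an interferon-stimulated response element (ISRE) core 55 bases before the start.
WARS: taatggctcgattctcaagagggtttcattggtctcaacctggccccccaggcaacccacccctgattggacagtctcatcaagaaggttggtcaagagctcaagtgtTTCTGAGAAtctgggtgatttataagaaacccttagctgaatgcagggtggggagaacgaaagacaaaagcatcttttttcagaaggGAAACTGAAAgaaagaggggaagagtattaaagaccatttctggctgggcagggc
The ISRE core was in 3 of the 38 synthetase windows (7.89%, those of WARS and EARS2) and in 3.57% of all windows, and the GAS in 7 (18.4%) and in 7.66%. Windows of the same gene can overlap, as those of EARS2 and of WARS2 do, and then share a match. By gene the ISRE core was in 2 of 29 synthetases and in 4.38% of all genes, and the GAS in 5 of 29 and in 9.38%. Among interferon genes set beside WARS, 4 of 9 were called lower with PBRM1 shRNA in VHL-/- cells (list median -0.45): the peptide transporter TAP1 (-0.90, adjusted p = 0.000114), GBP1 (-0.69), IRF1 (-0.47) and PSMB9 (-0.45). With KDM5C shRNA 2 were called there (TAP1 and GBP1, median -0.28), and in VHL+/+ cells TAP1 was the called gene with either shRNA (-0.65 and -0.50). Of all genes 2.65% and 2.37% were called lower with PBRM1 and KDM5C shRNA in VHL-/- cells, and 0.898% and 1.80% in VHL+/+ cells. Of these 8 calls, 4 held with each array left out: TAP1 in VHL-/- cells with either shRNA and in VHL+/+ cells with PBRM1 shRNA, and GBP1 in VHL-/- cells with PBRM1 shRNA. Whether WARS followed these genes was not tested.

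DARS and TARS2 were the synthetases called lower in VHL+/+ cells. In VHL+/+ against VHL-/- cells 1 of 37 was called lower with SCR (1.89% of all genes lower, 1.30% higher), 0 with PBRM1 shRNA (1.16% lower, 1.21% higher; 1 of 37 at unadjusted p under 0.05) and 2 with KDM5C shRNA (1.56% lower, 1.21% higher). The median log2 fold change over the 37 was 0.00, -0.06 and -0.04, with 20, 15 and 14 members above 0.

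DARS, a member of the multi-synthetase complex, read 11.72, 11.81 and 11.61 with SCR in VHL-/- cells (11.71 ± 0.10) and 11.28, 11.47 and 11.42 in VHL+/+ cells (11.39 ± 0.10). With PBRM1 shRNA it read 12.03, 11.80 and 11.91 (11.91 ± 0.12) and 11.56, 11.56 and 11.68 (11.60 ± 0.07), and with KDM5C shRNA 12.08, 11.89 and 12.00 (11.99 ± 0.09) and 11.63, 11.73 and 11.67 (11.68 ± 0.05). The VHL+/+ arrays lay below the VHL-/- arrays in each of the 3 pairs of groups. The log2 fold change was -0.32 with SCR (SE 0.08, adjusted p = 0.0387), -0.31 with PBRM1 shRNA (adjusted p = 0.0571) and -0.32 with KDM5C shRNA (adjusted p = 0.0490), so the same change sat on either side of the threshold. The SCR call was lost without any 1 of VHL+/+ SCR replicates 1 to 3, VHL-/- SCR replicates 1 and 2, replicate 2 of VHL+/+ PBRM1 shRNA and replicate 3 of VHL+/+ KDM5C shRNA (adjusted p 0.0513 to 0.203). The KDM5C call was lost with any 1 of 14 arrays left out (0.0505 to 0.173), the exceptions being replicates 1 and 2 of VHL-/- PBRM1 shRNA, replicate 3 of VHL-/- SCR and replicate 1 of VHL+/+ SCR. Against SCR, DARS gave 0.20 and 0.28 in VHL-/- cells and 0.21 and 0.29 in VHL+/+ cells, none of them called. The other 7 synthetases of the complex gave 0 calls in the 7 comparisons, in which 12.5% of all genes were called at least once.

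TARS2, the mitochondrial threonyl enzyme, was lower in VHL+/+ cells with KDM5C shRNA. It read 7.61, 7.59 and 7.50 in VHL-/- cells (7.56 ± 0.06) and 7.20, 7.21 and 7.21 in VHL+/+ cells (7.21 ± 0.01), which do not overlap. The other groups lay between or across these: 7.40, 7.41 and 7.23 with SCR and 7.42, 7.50 and 7.28 with PBRM1 shRNA in VHL-/- cells, and 7.21, 7.18 and 7.37 with SCR and 7.33, 7.36 and 7.47 with PBRM1 shRNA in VHL+/+ cells. The log2 fold change was -0.36 (SE 0.08, adjusted p = 0.0186), -0.39 within chip 1 and -0.29 within chip 2. It was lost without VHL+/+ KDM5C shRNA replicate 1, 2 or 3 or VHL-/- KDM5C shRNA replicate 1 or 2 (adjusted p 0.0578 to 0.0673). The 250 bases before the RefSeq start of TARS2 are shown because they hold, for a gene that was called with VHL, the hypoxia core: they lie at chr1:150487169-150487418 on the plus strand of GRCh38.p14, and ACGTG, in capitals, begins 26 bases before the start.
TARS2: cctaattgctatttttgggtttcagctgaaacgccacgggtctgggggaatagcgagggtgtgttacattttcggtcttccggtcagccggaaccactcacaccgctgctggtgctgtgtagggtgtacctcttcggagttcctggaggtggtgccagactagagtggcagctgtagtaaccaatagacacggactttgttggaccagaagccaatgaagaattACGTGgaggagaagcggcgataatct
That core was in 10 of the 38 synthetase windows (26.3%) and in 21.4% of all windows. By gene it was in 9 of 29 synthetases and in 24.9% of all genes.

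**Figure D4:**
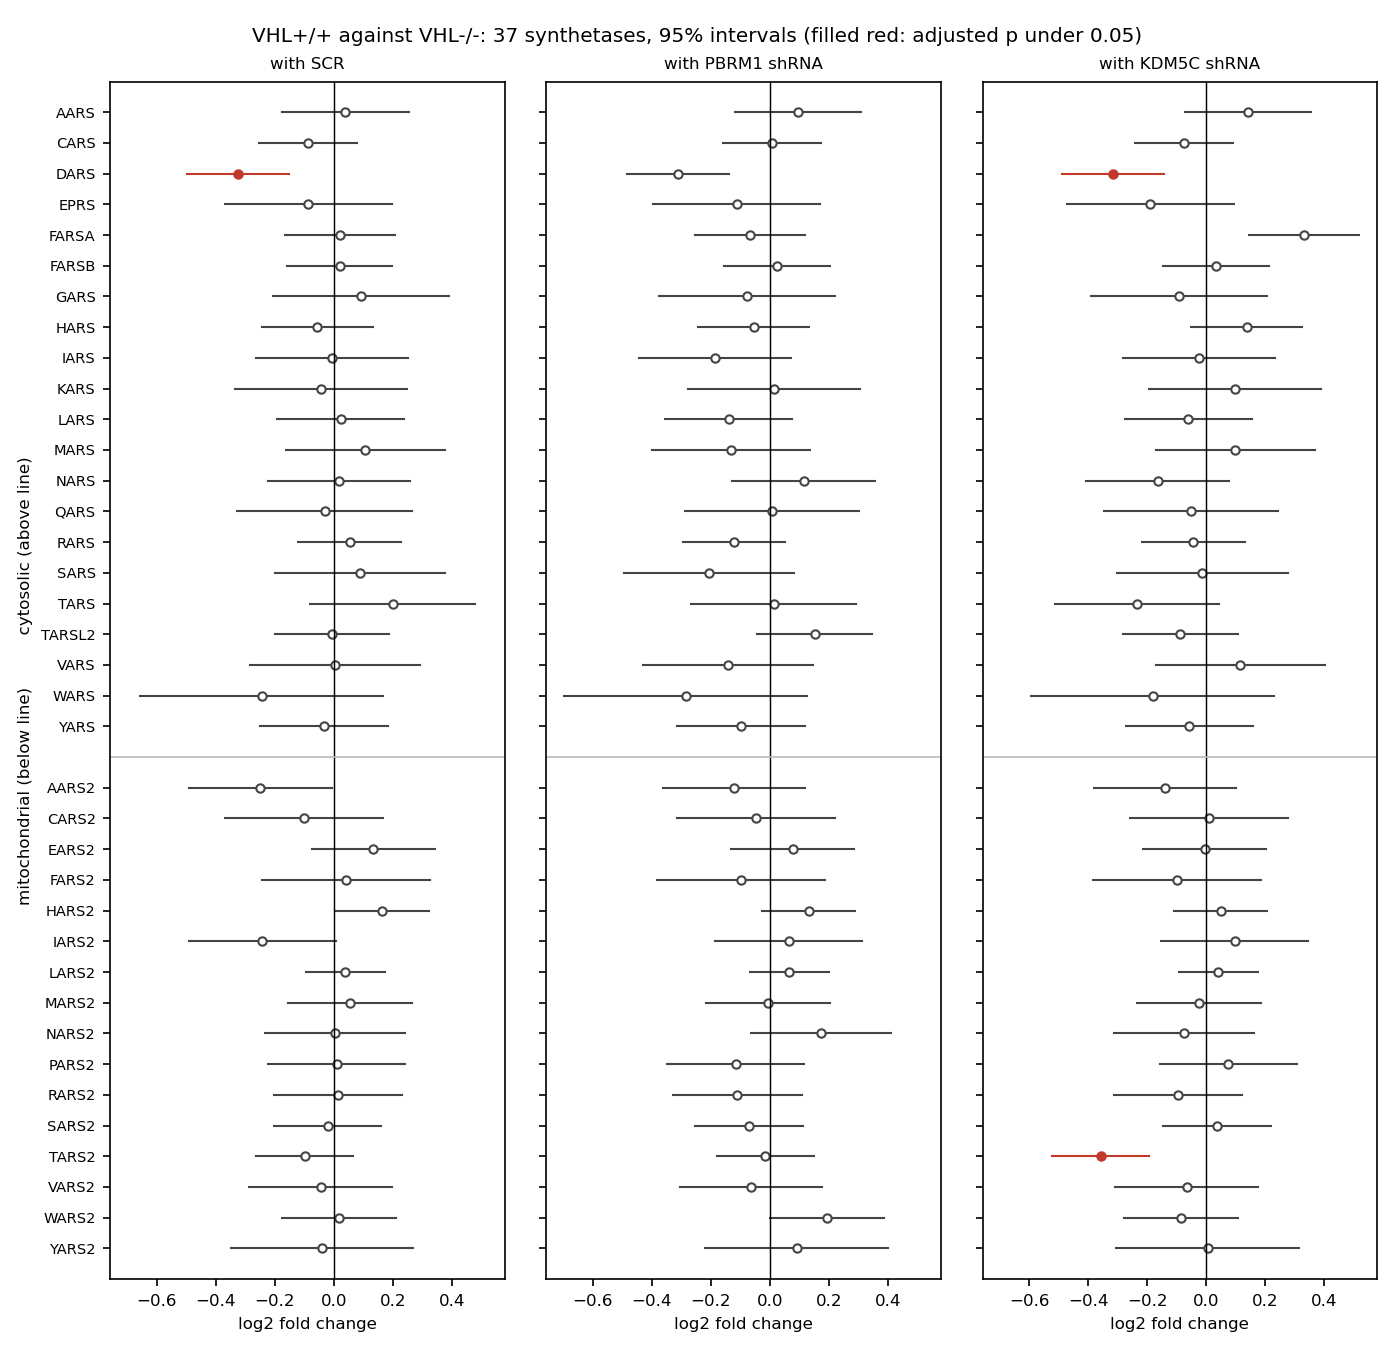
Log2 fold change of VHL+/+ against VHL-/- cells (horizontal axis) with its 95% interval for each of the 37 synthetases, with SCR, PBRM1 shRNA and KDM5C shRNA; filled points were called by limma at adjusted p under 0.05. DARS and TARS2 are the called members, both below 0.

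Of 28 ATF4 targets other than synthetases, 3 were called lower in VHL+/+ cells with SCR, PBRM1 shRNA and KDM5C shRNA alike, and 0, 1 and 0 were called higher. The list medians were -0.05, -0.05 and -0.06, beside 0.00 over all genes, with 10, 12 and 13 members above 0. DDIT4, which restrains mTORC1 and also answers to hypoxia, gave -0.97, -0.84 and -1.24 in the same order (adjusted p = 0.00289, 0.00708 and 0.000335), calls that held with each array left out but were lost without the chip term (adjusted p = 0.521, 0.714 and 0.407). The paired amino acid transporter genes SLC7A5 (-0.55, -0.74 and -0.66) and SLC3A2 (-0.54 with SCR and -0.73 with PBRM1 shRNA) were also called, and of these 5 calls the one of SLC3A2 with PBRM1 shRNA held with each array left out. All 5 were lost without the chip term and in chip 1 alone. NUPR1, a stress response gene, was called with KDM5C shRNA (-0.37, adjusted p = 0.0480), a call lost with any 1 of 16 arrays left out. VLDLR was called higher with PBRM1 shRNA (0.64, adjusted p = 0.0309), a call lost with any 1 of 4 arrays left out (adjusted p 0.0872 to 0.204). The 12 ATF4-target synthetases gave 0 calls in these comparisons, the largest decreases being -0.25 (WARS), -0.28 (WARS) and -0.23 (TARS). Over all genes 420, 311 and 364 of 13141 were called, a share at which 12 genes would give few calls.

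Between the shRNAs, and in the change of their effects with VHL, no synthetase was called. PBRM1 shRNA against KDM5C shRNA in either background and the difference of each shRNA effect between backgrounds gave 0 of 37 members and 0% of all genes in limma. At unadjusted p under 0.05 there were 2 and 1 synthetases for the shRNA pair (707 and 545 of all genes) and 0 and 3 for the differences (553 and 1014). The 95% interval of the difference between the shRNAs lay within 1.5-fold for all 37 synthetases in both backgrounds, and that of the difference between backgrounds for 32 (PBRM1) and 33 (KDM5C).

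At the ends of the signal range, the member with the highest mean was GARS, the glycyl enzyme, at 12.28, 12.41 and 12.02 with SCR, 12.08, 12.22 and 12.18 with PBRM1 shRNA and 12.65, 12.24 and 11.73 with KDM5C shRNA in VHL-/- cells. In VHL+/+ cells it read 12.50, 12.42 and 12.06, then 12.30, 12.16 and 11.78, then 11.96, 12.35 and 12.03, and the groups overlapped. FARSB, the other subunit of the phenylalanyl enzyme, had the lowest mean, with all 18 arrays between 6.58 and 6.90, near the bottom of the scale. Its log2 fold changes stayed between -0.02 and 0.04 in the 7 comparisons, and detection calls for single arrays were not used here. Different genes are read by different probes, so this order is one of probe signal and not of transcript level.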

How the data were processed

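Total RNA from 786-O cells was hybridised to 18 Illumina arrays in 6 groups of 3. The authors deposited 1 log2 signal per gene and array: in their methods, GenomeStudio output was background-corrected to positive values, log2-transformed and quantile-normalized, probes present at a detection threshold of 0.05 were kept, and probes were averaged per gene. Averaging can hide probes that disagree. Whether the batch correction used for heat maps entered these values is not given in the sources used here.

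Groups came from the labels. All 13141 genes were fitted in limma 3.58.1 (R 4.3.3) with 6 group terms and a chip term (11 residual degrees of freedom), and p-values were adjusted by Benjamini-Hochberg within each of 11 contrasts. The script was tested on simulated data. Members, gene lists and motifs were chosen with earlier results of these data known. Per-array values are given for synthetases called in any of 7 contrasts, WARS, and the members of highest and lowest mean signal; of other lists at most 5 called genes per contrast. No array was left out. Some results of single genes and sequences, left out of lists and counts, are not reported here. Promoters came from RefSeq (GRCh38.p14), in which 18 members had the same symbol and 19 a newer one. Each result was recomputed with a replicate block, without the chip term, with fold thresholds of 1.5 and 2, the dimmest 0.25 of genes left out, median centring, cyclic loess, trend and robust moderation, the contrast's arrays alone, and each array left out. Chip 1 alone, and the alternatives for PBRM1 against KDM5C shRNA, WARS and list genes, were chosen after seeing the data.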

Additional observations from a re-analysis of the deposited data

Results flagged for a closer look

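With KDM5C shRNA the arrays of TARS2, the mitochondrial threonyl-tRNA synthetase, all lay above the SCR mean in VHL-/- cells and all below it in VHL+/+ cells once the chip difference was removed. The log2 fold change against SCR was 0.22 in VHL-/- cells and -0.04 in VHL+/+ cells, a difference of -0.26 (95% interval -0.49 to -0.03). In limma the difference had an unadjusted p = 0.0314 and an adjusted p = 0.565 over all genes, so it did not pass. At unadjusted p under 0.05 there were 3 of 37 synthetases in that contrast, beside 1014 of 13141 genes. They were TARS2, FARSA (0.31, adjusted p = 0.544 in limma) and TARS (-0.43, adjusted p = 0.574 in limma).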

How the results depend on the processing

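No called gene reversed its direction under any alternative run. WARS, which was not called, did: with 1 array left out it ranged from -0.311 to 0.0409 with KDM5C shRNA in VHL+/+ cells and from -0.400 to 0.0149 in VHL+/+ against VHL-/- cells with KDM5C shRNA, positive without VHL+/+ KDM5C shRNA replicate 1, and in chip 1 alone it was 0.00134 in VHL+/+ against VHL-/- cells with PBRM1 shRNA. Of 9 calls of synthetases 4 held with each array left out (AARS in 4 comparisons) and 7 in chip 1 alone, and of 48 calls of genes of the other lists 21 and 21 did. A fold threshold of 1.5 left 1 called synthetase with KDM5C shRNA in either background and 0 in the VHL comparisons, and a threshold of 2 left 0 in all 7. Without the chip term 1 was called with KDM5C shRNA in either background, and 0 and 1 in VHL+/+ against VHL-/- cells with SCR and KDM5C shRNA. In the same order the arrays of the contrast alone gave 0 and 0, with 2 called for PBRM1 and 1 for KDM5C shRNA in VHL-/- cells, and chip 1 alone gave 0 and 1, with 2 called for PBRM1 shRNA in VHL+/+ cells. Trend and robust moderation gave 0 with SCR and 1 with KDM5C shRNA, and leaving out the dimmest 0.25 of genes 1 with KDM5C shRNA. The cause was not tested. Leaving out each array gave 1 to 1, 1 to 3, 1 to 2 and 1 to 3 synthetases in the shRNA comparisons, 0 to 1, 0 to 0 and 0 to 3 in the VHL comparisons, and 0 to 0 elsewhere. Median centring and cyclic loess changed no count by over 1.5 times.

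The labels number replicates 1 to 3 in every group. Same-numbered arrays deviated together with correlations from -0.17 to 0.72 (median 0.28), and 12 of 18 arrays correlated best with their own number. All replicate 3 arrays were on a chip apart from the others, so their agreement cannot be told apart from the chip difference. These correlations therefore cannot decide whether same-numbered arrays were pairs, and the numbers were not taken as pairs. With the replicate block in place of the chip term 0 synthetases were called for VHL with SCR and 1 for VHL with KDM5C shRNA, and the other counts did not change.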

Other observations

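EIF2S2, the beta subunit of eIF2, was also higher in VHL+/+ than in VHL-/- cells with KDM5C shRNA (log2 fold change 0.38, adjusted p = 0.0210 in limma), a call that was lost in chip 1 alone (0.32, adjusted p = 0.146), without the chip term, and without replicate 1 or 3 of either KDM5C shRNA group (0.0657 to 0.115). POP5, a subunit of RNase P, which trims the 5′ end of tRNA, was higher in the same comparison (0.45, adjusted p = 0.00955; in chip 1 alone 0.46, adjusted p = 0.0596), a call also lost without VHL+/+ KDM5C shRNA replicate 2 or 3 (0.0526 to 0.0592).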
